A study of Mus musculus with 14 samples.

Results

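The secreted Wnt antagonists of the Dickkopf (Dkk) and secreted frizzled-related protein (Sfrp) families were followed in *p65*(-/-) mouse embryonic fibroblasts that had been complemented with different forms of p65. The 7 genes were *Dkk1*, *Dkk2*, *Dkk3*, *Sfrp1*, *Sfrp2*, *Frzb* and *Wif1*, of 27962 gene names on the array, and they were found by their gene name in the scanner files. They were read by 9 of the 41174 probes, and 3 of these probes, 1 each for *Dkk2*, *Dkk3* and *Sfrp1*, were well above background on all 14 arrays. The genes were chosen with their signals in these 5 groups known, so the differences between groups given for them are a description and carry no test.

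All cells lacked endogenous p65, the RelA subunit of NF-κB, and carried a lentiviral insert as 1 selected pool per construct. The inserts coded for wild type p65, for KTR (in which the 3 lysines K310, K314 and K315 are arginines), for K314/315R (in which the last 2 are) or for nothing (the empty vector pTV). Each line was starved overnight and stimulated with TNFα at 30 ng/ml for 3 h, on 3 arrays for wild type, KTR and pTV and on 2 for K314/315R, and wild type cells were also measured without TNFα (0 h) on 3 arrays. As each construct was 1 pool, the form of p65 and the pool cannot be told apart, and pTV cells without TNFα were not analysed here.

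Wnt proteins signal by binding Frizzled receptors together with the coreceptors Lrp5 and Lrp6, after which β-catenin accumulates and works with TCF/LEF factors at target genes. Dkk1 and Dkk2 bind Lrp5 and Lrp6 and keep them from Wnt, with the Kremen proteins as further receptors, whereas Dkk3 is a divergent family member that does not share this binding. Sfrp1, Sfrp2 and Frzb carry a Frizzled-like cysteine-rich domain and, like Wif1, bind Wnt proteins directly. Fibroblasts are among the usual sources of these secreted antagonists.

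The 75th percentile of the intensities, to which every signal below is relative, lay between 967 and 1442 per array. The lowest signal still well above background, on the log2 scale relative to that percentile, was −5.20 to −4.00 per array. Of 9 fibroblast markers, 8 were well above background on all arrays, while *Epcam*, *Cdh1*, *Ptprc*, *Emr1*, *Itgam*, *Pecam1*, *Cdh5*, *Kdr*, *Tek*, *Myh11*, *Des* and *Gfap*, which mark epithelial, blood, endothelial, smooth muscle and glial cells, were so on none. Those on none were 2 of 5 epithelial, 3 of 5 blood and 4 of 5 endothelial markers. Of the 5 smooth muscle and 4 neural markers they were 2 and 1, so no list was shown to be wholly absent. Of the same lists, *Krt8* (epithelial), *Acta2*, *Tagln* and *Cnn1* (smooth muscle) and *Tubb3*, *Nes* and *Sox2* (neural) were well above background on all arrays. The brighter *Rela* probe read 1.00 to 1.34 in pTV, 1.52 to 1.54 in wild type cells at 3 h and 0.97 to 1.04 at 0 h. It read 0.79 to 1.54 in KTR and 1.54 to 1.87 in K314/315R. The dimmer probe read −2.84 to −2.31 in pTV, −2.07 to −1.88 in wild type cells at 3 h and −2.65 to −2.49 at 0 h. It read −2.26 to −1.99 in KTR and −2.06 to −1.51 in K314/315R. The sources used here do not say whether these probes read the inserted or the disrupted gene, so they do not check the labels. Each of slides 1, 2 and 3 carried both wild type conditions, KTR and pTV, on 1 array apiece, and slide 4 held both K314/315R arrays and none of the others, so slide and line cannot be told apart for K314/315R.

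*Dkk2*, whose signal differed most between the groups, lies on chromosome 3 (132085266 to 132180304 in the mouse build GRCm38.p6, RefSeq). The stretch of promoter that ends 1 base before its first annotated base, chr3:132085042-132085265 on the plus strand, is shown because TCF/LEF factors act through such sequence and because p65 acts through κB motifs. Its capitals mark CTTTG, the reverse complement of CAAAG, the core of TCF/LEF motifs.
*Dkk2* promoter: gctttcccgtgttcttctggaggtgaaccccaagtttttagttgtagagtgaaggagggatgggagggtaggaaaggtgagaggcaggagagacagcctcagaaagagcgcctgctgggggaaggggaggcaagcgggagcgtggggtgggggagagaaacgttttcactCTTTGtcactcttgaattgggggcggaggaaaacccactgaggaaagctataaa
The match ended 50 bases before the gene and was the single CAAAG, on either strand, in the 300-base window around the start of *Dkk2*. Such a match was common, since 53.9% of 32851 windows of this length held at least 1. No κB consensus was found in the *Dkk2* window, and 8.46% of all windows held one.

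The windows of 5 of the 7 genes could be searched in this way. *Dkk1* (chromosome 19, 30545876 to 30549496) held 4 CAAAG matches, *Frzb* (chromosome 2, 80411970 to 80447396) and *Wif1* (chromosome 10, 121034004 to 121100642) held 1 each, and *Sfrp2* (chromosome 3, 83765750 to 83774314) held 0. The κB consensus was found once, in *Sfrp2*, and in 0 of the other 4. *Dkk3* lies on chromosome 7 (112116019 to 112159482) and *Sfrp1* on chromosome 8 (23411383 to 23449632).

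*Dkk2*, an antagonist that acts on the Wnt coreceptors, had a high signal in cells without p65 and a low one in every line with p65. In pTV cells the log2 signals were 0.68, 0.81 and 0.50 (0.66 ± 0.16, SD, n = 3), which is 1.58 times the 75th percentile of the array. In wild type cells at 3 h they were −2.78, −2.28 and −2.99 (−2.68 ± 0.36, SD, n = 3), or 0.156 times that percentile. The wild type arrays thus lay far below the pTV arrays, with 2.78 between the nearest 2 on the log2 scale.

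The same was seen with both acetylation-deficient forms. In KTR cells the log2 signals of *Dkk2* were −2.38, −1.66 and −1.72 (−1.92 ± 0.40, SD, n = 3), and in K314/315R cells −2.82 and −3.31 (−3.06 ± 0.34, SD, n = 2). Neither line had an array that overlapped with pTV. Against the same pTV arrays, the log2 differences were −3.35 (SE 0.26, 10.2-fold lower) for wild type, −2.58 (SE 0.26, 5.98-fold lower) for KTR and −3.73 (SE 0.29, 13.2-fold lower) for K314/315R. These 3 values share the pTV arrays and are not independent of each other. They average over a culture, so fewer cells with the transcript and less transcript per cell cannot be told apart.

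Within slides 1, 2 and 3, the wild type array was below the pTV array for *Dkk2* by log2 differences of −3.45, −3.09 and −3.49, and KTR by −3.05, −2.47 and −2.22. The difference was thus present on every slide that held both lines. With the background corrected by normexp in place of the scanner software, the wild type difference was −2.31, KTR −2.18 and K314/315R −2.84, all with the same sign. The summed signal of 4 neural markers, of which *Tubb3*, *Nes* and *Sox2* were measured on all arrays and *Gfap* on none, was 19.1 to 21.6 in pTV and 9.17 to 11.8 in the other groups, and that of 5 smooth muscle markers was 174 to 237 in pTV and 254 to 345 elsewhere. Their part in the result was not tested.

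Among the cells with p65, *Dkk2* varied little compared with the step to pTV. Unstimulated wild type cells gave −2.47, −1.79 and −2.61 (−2.29 ± 0.44, SD, n = 3), and these overlapped with the stimulated wild type arrays. The log2 difference of 3 h over 0 h was −0.39 (SE 0.26), with −0.31, −0.49 and −0.38 on slides 1, 2 and 3, but 0.23 with normexp. KTR was above wild type by 0.76 (SE 0.26; 0.40, 0.62 and 1.27 on the slides), with 1 KTR array inside the wild type range, and this value was 0.13 with normexp. K314/315R was below wild type by a log2 difference of −0.38 (SE 0.29), also with overlap. In rising order the groups were K314/315R, wild type at 3 h, wild type at 0 h, KTR and pTV, and each neighbour overlapped with the next except KTR and pTV.

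**Figure D1:**
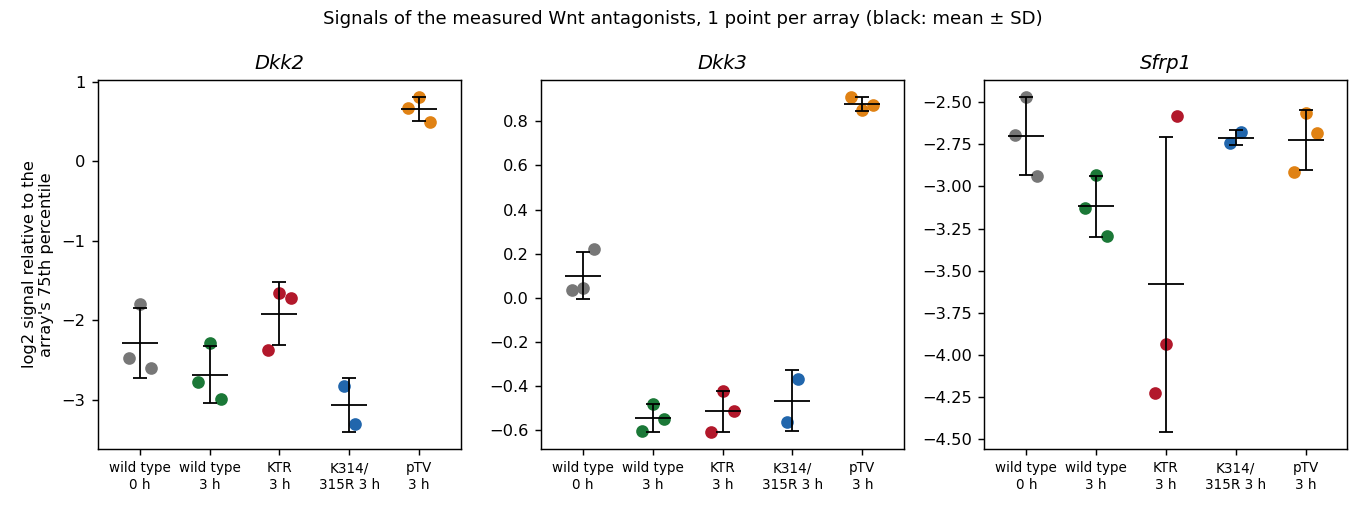
Log2 signal, relative to each array's 75th percentile (vertical axes, each with its own range) of *Dkk2*, *Dkk3* and *Sfrp1* in the 5 groups, with 1 coloured point per array and the mean ± SD in black (n = 3, and 2 for K314/315R). The pTV arrays lie above all others for *Dkk2* and *Dkk3*, the wild type arrays at 0 h lie between for *Dkk3*, and for *Sfrp1* 1 KTR array lies at −2.58 while the other 2 lie at −4.22 and −3.93.

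*Dkk3*, the divergent Dickkopf, also had its highest signals in pTV cells and differed between stimulated and unstimulated wild type cells. The pTV arrays read 0.91, 0.85 and 0.88 on the log2 scale (0.88 ± 0.03, SD, n = 3), and the wild type arrays at 3 h −0.60, −0.48 and −0.55 (−0.55 ± 0.06, SD, n = 3). Wild type was therefore 2.69-fold lower than pTV (log2 difference −1.42, SE 0.09), and the groups were 1.33 apart at their nearest arrays. KTR cells read −0.61, −0.42 and −0.51 (−0.51 ± 0.09, SD, n = 3) and K314/315R cells −0.56 and −0.37 (−0.47 ± 0.14, SD, n = 2). All 3 lines with p65 overlapped with each other and none overlapped with pTV.

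The differences of the mutants from pTV, over the same pTV arrays, were −1.39 (SE 0.09) for KTR and −1.35 (SE 0.10) for K314/315R. Against wild type, *Dkk3* differed by 0.03 (SE 0.09) in KTR and 0.08 (SE 0.10) in K314/315R, both less than the SD within the mutant lines. On slides 1, 2 and 3 the wild type minus pTV difference was −1.52, −1.33 and −1.43. The scatter of *Dkk3* between cultures of a line was thus small beside its step to pTV.

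Without TNFα, the wild type arrays read 0.03, 0.04 and 0.22 for *Dkk3* (0.10 ± 0.11, SD, n = 3), above all arrays of the lines with p65 at 3 h and below all pTV arrays. After 3 h of TNFα the signal was 1.56-fold lower (log2 difference −0.65, SE 0.09), and the 2 groups did not overlap. The difference was −0.64, −0.52 and −0.77 on slides 1, 2 and 3 and −0.46 with normexp. It lay under the 1.8-fold that a call required. *Dkk3* was thereby the only one of the 3 measured genes for which the stimulated and unstimulated arrays were separate.

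*Sfrp1*, a Wnt-binding antagonist, did not show the high pTV signal of the 2 Dickkopf genes. The pTV arrays read −2.92, −2.57 and −2.68 (−2.72 ± 0.18, SD, n = 3) and the wild type arrays at 3 h −3.13, −2.93 and −3.30 (−3.12 ± 0.18, SD, n = 3). Wild type was below pTV by a log2 difference of −0.40 (SE 0.32), and although the groups did not overlap, the nearest arrays were 0.01 apart. With normexp the difference was 0.0212.

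K314/315R arrays read −2.74 and −2.68 for *Sfrp1* (−2.71 ± 0.04, SD, n = 2), close to pTV (log2 difference 0.01, SE 0.36) and above wild type by 0.41 (SE 0.36) without overlap, but below wild type with normexp (−0.18). Unstimulated wild type cells read −2.70, −2.47 and −2.94 (−2.70 ± 0.23, SD, n = 3), and 3 h of TNFα gave a log2 difference of −0.42 (SE 0.32) with overlapping arrays, or 0.33 with normexp. For *Sfrp1* the differences of stimulated wild type from pTV, K314/315R and unstimulated cells were close to their errors and turned sign with normexp. That of K314/315R from pTV, far below its error, also turned sign (−0.16). The difference of KTR from wild type, given below, kept its sign (−0.79 with normexp).

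The KTR arrays stood apart from each other for *Sfrp1*, with −4.22, −3.93 and −2.58 (−3.58 ± 0.88, SD, n = 3). The first 2 were the lowest of all 14 arrays, and the third was above every wild type array at 3 h. The difference of KTR was −0.46 (SE 0.32) from wild type and −0.86 (SE 0.32) from pTV, and without KTR replicate 3 it was −0.96 and −1.36, the latter past the call threshold. Within slides, KTR minus wild type was −1.09, −1.003 and 0.71. KTR replicates 2 and 3 had the most outlier spots of all arrays (212 and 326, of 1 to 326 per array). Their part in this spread was not tested.

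**Figure D2:**
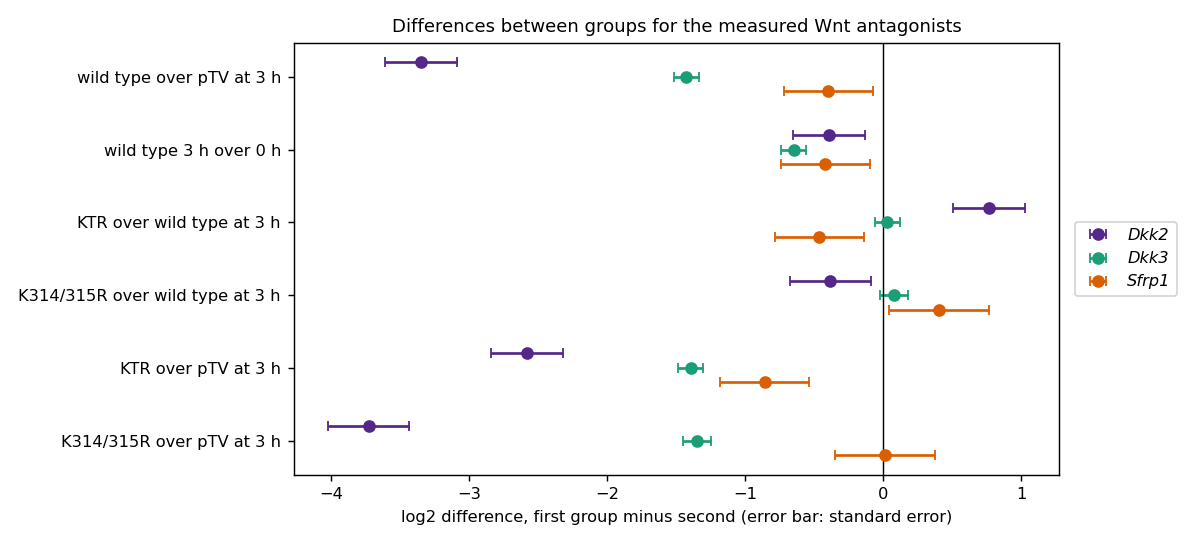
Log2 difference (horizontal axis, first group minus second; bars are standard errors) of *Dkk2*, *Dkk3* and *Sfrp1* in 6 comparisons. For *Dkk2* and *Dkk3* the 3 comparisons over pTV lie far to the left, from −3.73 to −2.58 and from −1.42 to −1.35, and those between lines with p65 lie nearer to 0.

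A difference was called at a fold over 1.8 either way and an adjusted p under 0.05 in the fit across all 22172 tested probes. For wild type over pTV, 2 of the 3 measured antagonists were called, *Dkk2* and *Dkk3*, both lower, where 6.27% of all tested probes were called. Both were also called lower in KTR over pTV (background 6.01%) and in K314/315R over pTV (background 11.5%). None of the 3 was called for wild type at 3 h over 0 h (background 1.55%), KTR over wild type (background 0.167%) or K314/315R over wild type (background 1.2%). As the genes were chosen by these signals, nothing is read from these counts.

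The other 6 probes gave no level in most cultures. *Dkk1*, the best known coreceptor antagonist, has 2 probes: one was well above background only on wild type replicate 1 at 3 h (log2 signal −3.65, others −7.16 to −5.59) and the other only on wild type replicate 2 at 0 h (−3.56, others −7.38 to −6.24). The 2 *Dkk1* probes were therefore raised on different arrays, and neither on a second array of the same group. *Sfrp2* was well above background on wild type replicate 1 at 0 h alone (−3.81, others −6.96 to −4.75), and *Frzb*, an antagonist first found in cartilage, on KTR replicate 2 (−3.45) and pTV replicate 3 (−4.31; others −7.48 to −6.24).

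*Wif1* was not well above background on any array (−6.96 to −5.25), nor was the second *Sfrp1* probe (−7.42 to −6.20). That probe thus gave no level to set beside the measured one. For none of these 6 probes did a whole group of arrays rise well above background, so none was tested and no fold is given for them.

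**Figure D3:**
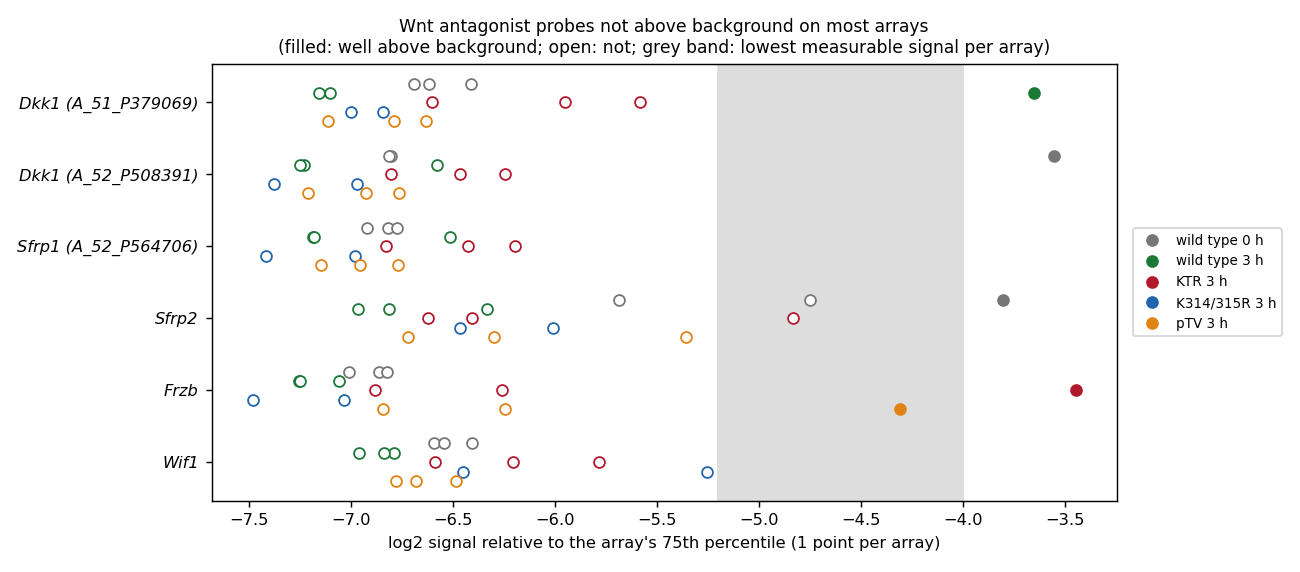
Log2 signal, relative to each array's 75th percentile (horizontal axis) for the 6 antagonist probes that were not tested, with 1 point per array coloured by group. Filled points were well above background, which held for 5 points, and the grey band spans the lowest measurable signal of the 14 arrays, −5.20 to −4.00.

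The genes whose pattern over the 14 arrays was most like that of each measured antagonist were looked up among 12717 other genes. For *Dkk2* these were *Dpysl3*, which codes for a neuronal cytoskeletal regulator (Pearson r = 0.98), *Otud1*, a deubiquitinase (0.97), and 2600005C20Rik, now *Rrp1b* (0.96). All 3 were highest in pTV, as *Dpysl3* shows with 3.97 to 4.05 in pTV and 2.88 to 3.39 elsewhere. For *Dkk3* they were *Serinc2* (0.96), 2810025M15Rik (0.96) and *Klf9*, a transcription factor (0.95). *Klf9* read −0.61 to −0.51 in pTV and −1.44 to −1.14 elsewhere.

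For *Sfrp1* the likest were *Phf14* (0.86), *Eef2k*, the kinase of elongation factor 2 (0.85), and *Itm2a* (0.83), with lower correlations than for the Dickkopf genes. *Eef2k* had the same wide range in KTR as *Sfrp1*, −2.58 to −0.95. After the group means were taken out, r for *Dkk2* was 0.59 with *Dpysl3*, 0.48 with *Otud1* and 0.73 with 2600005C20Rik. For *Dkk3* it was 0.43 with *Serinc2*, 0.12 with 2810025M15Rik and −0.45 with *Klf9*. With *Sfrp1* it was 0.78 for *Phf14*, 0.73 for *Eef2k* and 0.66 for *Itm2a*. These correlations are over arrays that share groups and slides and are given as descriptions.

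Other genes of the Wnt pathway were taken from a list of 88, of which 62 were tested. In wild type over pTV, 8 were called higher and 3 lower (17.7%, where 6.27% of all tested probes were called), with a median log2 difference of −0.06, against −0.03 over all tested probes. With KTR it was 9 and 3 (19.4%, against 6.01%), and with K314/315R 11 and 4 (24.2%, against 11.5%), all over the same pTV arrays. The higher genes include *Wnt3a* and *Sp5*, which passed the filter on dim probes only through a group in which they were high, so their place in these counts supports nothing. *Nkd2*, called higher only in KTR and K314/315R, was well above background on only 2 of 3 pTV arrays. With normexp, which called 1.61%, 1.8% and 2.26% of all tested probes, the counts were 2, 4 and 5. In wild type over pTV the 2 were *Wnt10a* (1.31) and *Fzd1* (1.07), and the other 9 calls were lost. For TNFα in wild type cells 1 was called higher, *Wnt3a*, and 1 lower (3.23%, against 1.55%), for K314/315R over wild type 1 higher (1.61%, against 1.2%), and for KTR over wild type limma called 0, with 6 at an unadjusted p under 0.05. Leaving out 1 array gave 1 (without wild type replicate 1 at 0 h) to 4 (without wild type replicate 1 at 3 h) for TNFα and 0 to 1 for each mutant over wild type.

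The receptors that Dkk proteins act on did not pass the test. *Lrp5*, *Lrp6* and *Kremen1* differed by −0.27 (adjusted p = 0.343, limma), 0.22 (0.806) and −0.11 (0.722) on the log2 scale in wild type over pTV, and *Kremen2* was not well above background on any array. Of the genes listed as other antagonists, *Dkkl1*, *Sost* and *Apcdd1* were tested and 0 of 3 were called in any of the 6 comparisons. *Apcdd1* was lower after TNFα at an adjusted p of 0.0274 (limma), but by −0.49, under 1.8-fold. In wild type over pTV their log2 differences were −0.28 to −0.23, beside −3.35 for *Dkk2*.

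Of 9 tested Wnt ligands, 3 were called in wild type over pTV. *Wnt10a* rose (log2 difference 1.76, adjusted p = 2.91e-06, limma), also with normexp, and *Wnt11* fell (−1.42, 0.000153), a call lost with normexp (−0.68). *Wnt3a* was at least 1.76-fold higher (−3.94 ± 0.25 in wild type against −6.95 ± 0.16 in pTV, SD, n = 3), where no pTV array was well above background and stimulated wild type was the only group with all arrays so, and the difference was 0.80 and not called with normexp. *Wnt10a* and *Wnt11* were called in the same direction in KTR and K314/315R over pTV, with normexp *Wnt10a* alone, and *Wnt7b* fell in K314/315R (−1.34, adjusted p = 0.0199, limma), a call lost without either K314/315R array (−1.24 and −1.45) or without pTV replicate 2 or 3 (−1.17 and −1.27), and with normexp (−0.96). With TNFα, *Wnt3a* was at least 1.60-fold higher, with no array at 0 h well above background, and was not called with normexp. *Wnt5b* fell (−0.87, adjusted p = 0.00169, limma), where a second *Wnt5b* probe at −0.82 was not called, and the first was not called without wild type replicate 1 at 0 h (−0.77) or with normexp (−0.93).

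Among receptors and agonists, *Fzd1*, a Frizzled receptor, rose in wild type over pTV (1.30, adjusted p = 6.41e-05, limma) as 1 of 13 receptors, and *Rspo2*, which strengthens Wnt signalling, rose as 1 of 5 (1.16, 0.00224; 0.84 and not called with normexp). *Porcn*, which lipidates Wnt proteins, rose in K314/315R over pTV (1.02, 0.00146), but was not called without K314/315R replicate 2 (0.77) or with normexp (0.57). Of 10 relay genes, *Dact2* rose (1.797, 0.000372; 1.43 and not called with normexp). The study listed *Dact2* from these arrays, so it is no independent evidence, and here its difference in KTR over wild type was −0.92 (adjusted p = 0.223, limma), or −1.26 and called without KTR replicate 1. Of 9 nuclear factors limma called 0 in wild type over pTV, with 2 at an unadjusted p under 0.05, and in K314/315R the corepressor *Tle2* rose (0.91, 0.0106), a call lost without K314/315R replicate 2 (0.68), without pTV replicate 1 (0.81) or with normexp (0.94).

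Of 10 tested target genes, 5 were called in wild type over pTV, where 6.27% of all tested probes were, and they did not share a direction. *Axin2*, a feedback inhibitor, rose (1.07, adjusted p = 0.007, limma), as did *Wisp2* (0.93, 0.000517; 0.79 and not called without wild type replicate 1). *Sp5* was also called higher, but only 1 wild type array and no pTV array was well above background, so no fold is given. It was tested only because both K314/315R arrays were well above background. *Ccnd1*, the gene of cyclin D1, fell (−1.01, 0.000558), as did *Cyr61* (−1.07, 2.99e-05). With normexp none of the 5 was called, with *Axin2* at 0.66, *Wisp2* at 0.74, *Sp5* at 0.51, *Ccnd1* at −1.07 and *Cyr61* at −1.22. *Nkd2* rose in KTR (1.08, 0.00354) and K314/315R over pTV (1.40, 0.00101). The pTV arrays read −5.18 to −4.41 for it, and only 2 of the 3 were well above background. With normexp the values were −0.0145 and 0.26 and neither was called. *Wisp2* rose in K314/315R over wild type (0.92, 0.0192), a call lost in 8 of 13 alternatives, among them leaving out wild type replicate 2 (0.87) or 3 (0.83) or either K314/315R array (0.87 and 0.96), while with the replicate number as a block *Wnt7b* was called beside it.

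**Figure D4:**
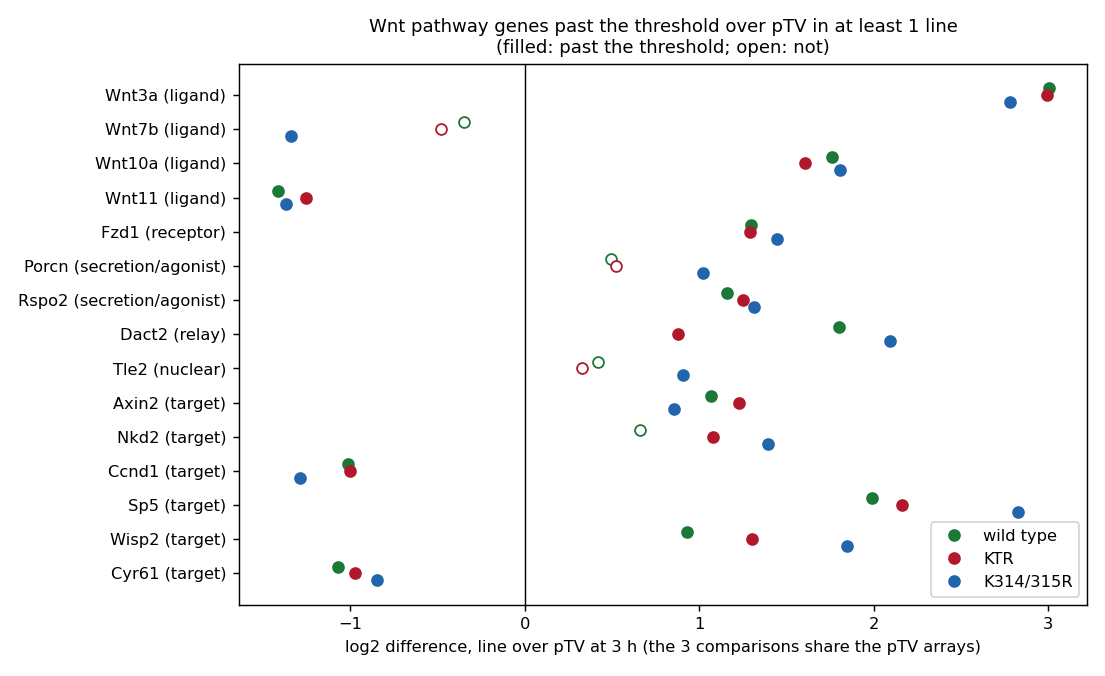
Log2 difference over pTV at 3 h (horizontal axis) for the 15 Wnt pathway genes past the threshold in at least 1 line, with 1 point each for wild type, KTR and K314/315R (filled where past the threshold) and the role in brackets. The lines share the pTV arrays, and *Wnt11*, *Wnt7b*, *Ccnd1* and *Cyr61* lie left of 0 while the other 11 lie right of it. The call of *Dact2* in KTR was lost in 9 of 14 alternatives, among them normexp (0.39). In K314/315R that of *Axin2* was lost in 6 of 13, among them normexp (0.18), and that of *Cyr61* in 5 of 13.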

How the data were processed

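RNA of 14 cultures was read on 1-colour Agilent Whole Mouse Genome arrays. The authors deposited the scanner output of Agilent Feature Extraction, in which each spot has an intensity corrected for background but not scaled between arrays. Their second table, of normalized intensity, held these values times 1 factor per array (0.837 to 1.20) within 1% for 99.67 to 99.82% of the probes and was used as an alternative. The study names Rosetta Resolver for its own analysis, which was not used here.

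After removal of outlier spots (1 to 326 per array), repeated spots were averaged and the 75th percentile of each array was subtracted on the log2 scale. Testing required a probe to be well above background throughout at least 1 group (22172 of 41174). All 14 arrays entered 1 fit with limma 3.58.1 in R 4.3.3, two-sided, Benjamini-Hochberg over all tested probes. A call needed a fold over 1.8 either way and an adjusted p under 0.05, for which 22168 to 22172 probes had a value. A fold is given as "at least" where 1 group had no array well above background and the other had all of its arrays so. It is taken against the lowest signal well above background on each array. A pathway gene was read by its brightest probe. The number of arrays limits the precision.

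Named were all member probes, the called pathway genes and the 3 genes most correlated with each measured member. Apart from these, *Rela*, the marker genes, the Dkk receptors and the other antagonists were named for what they check, and *Fzd8* and *Dact1* after their values were seen. The members and lists were chosen with earlier results of these data known. Alternatives were normexp (offset 50), quantile normalization, other filters, a replicate or slide block, the deposited table, fits of only the groups compared and leaving out each array. The fit was tested on simulated arrays.

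Arrays with the same replicate number deviated together on slides 1 to 3. Their r was 0.308 to 0.613 in 18 pairs, against −0.51 to 0.0954 in the 36 other pairs. There the replicate number is also the slide number, so paired cultures and a slide effect cannot be told apart. The labels state no pairing and RNA was isolated on different days. For K314/315R the 8 same-number pairs had −0.101 to 0.411. With 2 arrays the deviations from the group mean mirror each other, so these values cannot decide on a pairing.

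Promoter windows and gene positions are from RefSeq (GRCm38.p6), matched by symbol for 5 and 7 of the 7 genes.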

Additional observations from a re-analysis of the deposited data

How the results depend on the processing

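As a description of genes chosen by these signals, the wild type difference from pTV ranged from −3.55 to −2.31 for *Dkk2* and from −1.46 to −1.13 for *Dkk3* over the alternatives. Normexp moved the most values. With it, the log2 differences over pTV were −2.31, −2.18 and −2.84 for *Dkk2* and −1.13, −1.16 and −1.15 for *Dkk3* (wild type, KTR, K314/315R), and 0.0212 for *Sfrp1* in wild type. For TNFα they were 0.23 for *Dkk2*, −0.46 for *Dkk3* and 0.33 for *Sfrp1*, *Dkk2* in KTR over wild type was 0.13, and *Sfrp1* in K314/315R over wild type −0.18. *Nkd2* in KTR over pTV turned to −0.0145. The cause was not tested. Leaving out 1 array moved *Sfrp1* between −0.96 (without KTR replicate 3) and −0.14 (without KTR replicate 1) in KTR over wild type, and between −1.36 and −0.54 over pTV.

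The pathway counts with normexp were 2, 4 and 5 over pTV (wild type, KTR, K314/315R), 0 for TNFα and 0 for K314/315R over wild type. Without a filter on dim probes, KTR over wild type had 2 (*Dact1*, *Dact2*) and K314/315R over wild type 0. With only the probes well above background on all arrays, TNFα had 1, since *Wnt3a* was not among them. For K314/315R over wild type the count was 0 with slide as a random block and 0 with only the groups compared, and 2 with the replicate number as a block (*Wisp2*, *Wnt7b*). The replicate block also ended the call of *Cyr61* in K314/315R over pTV (−0.80) and changed no other call. Leaving out 1 array gave 1 (without wild type 0 h replicate 1) to 4 (without wild type 3 h replicate 1, then with *Fzd8* and *Wisp2*) for TNFα, 0 to 1 for KTR over wild type (1 without KTR replicate 1, *Dact2*) and 0 to 1 for K314/315R over wild type (0 without wild type replicate 2 or 3 or either K314/315R array). For the members, 232 values moved by less than their replicate SD and 14 by more.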
